A study of Mus musculus with 63 samples.

Results

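The genes that make cholesterol, and the SREBP2 system that adjusts them, were followed in mouse liver after tamoxifen was given to delete Hcfc1 from hepatocytes. The set was chosen by symbol: 33 names were looked up in a table of 15616 genes and 31 genes were found, 1 of them listed by its current symbol Msmo1 and not by the older Sc4mol. Hmgcs1 was not analysed here. The 31 genes comprise 7 enzymes of the mevalonate arm, which builds isoprenoid units from acetyl-CoA, 12 enzymes of the sterol arm, which runs from squalene to cholesterol, 4 genes of the control system, 7 genes of sterol traffic and storage, and Aacs, which turns acetoacetate into a precursor of the same pathway.

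Each of the 63 libraries was poly(A) RNA from the liver of 1 mouse aged 10 to 14 weeks, on breeder chow. Tamoxifen, 1 mg, was injected 3 times 24 h apart from day 0 to day 2, so the livers of days 0 to 2 come from the span of the injections. Livers were taken up to day 14. KO males (26 libraries) carried Alb-Cre-ERT2, a tamoxifen-activated Cre recombinase driven by the albumin promoter and thus aimed at hepatocytes, and Hcfc1 lox/Y. Het females (12 libraries) carried the same transgene and Hcfc1 lox/+, so that X inactivation leaves some hepatocytes with an intact active allele. WT males (25 libraries) bear the genotype label C57BL/6, while the protocol describes the control males as Hcfc1 lox/Y without Cre, so Cre itself and loss of Hcfc1 cannot be told apart when KO is compared with WT. Male genotypes had 2 libraries each on days 0 to 9 and 1 on days 10 to 13, and day 14 had 1 WT and 2 KO libraries. Females had 1 library a day on 12 days, and WT females were not analysed here, so genotype and sex cannot be told apart in any comparison with them.

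Cholesterol is built from acetyl-CoA through mevalonate, isoprenoid diphosphates, squalene and lanosterol. When sterols in the endoplasmic reticulum run low, SCAP carries the transcription factor SREBP2 to the Golgi, where it is cut and released to switch on the genes of the pathway; when sterols are plentiful, INSIG proteins hold SCAP back. The liver both makes and disposes of cholesterol, and LXR, a sensor of oxidised sterols, turns on genes that export it. Hcfc1 encodes HCF-1, a nuclear cofactor through which many transcription factors recruit enzymes that modify chromatin.

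The sequences just before the start of 5 transcripts that the results turn on are shown because the SREBP2 system acts through short elements near such starts. They are the 140 bases before the annotated start, from RefSeq on GRCm38.p6, read 5′ to 3′ on the strand of the gene. Capitals mark CCAAT, the NF-Y box that SREBP proteins commonly work beside, in either orientation (ATTGG on the other strand), except in Insig1, where they mark the 8 bases of a sterol element searched as CACNCCAC.
Idi1 (chr13:8885466-8885605, plus strand): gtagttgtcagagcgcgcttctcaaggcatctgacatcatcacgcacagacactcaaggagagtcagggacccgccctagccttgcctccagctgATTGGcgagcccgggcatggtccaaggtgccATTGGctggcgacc
Nsdhl (chrX:72918381-72918520, plus strand): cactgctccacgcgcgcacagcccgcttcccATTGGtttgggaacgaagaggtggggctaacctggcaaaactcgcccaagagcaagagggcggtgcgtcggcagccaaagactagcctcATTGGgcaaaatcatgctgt
Tm7sf2 (chr19:6067851-6067990, minus strand): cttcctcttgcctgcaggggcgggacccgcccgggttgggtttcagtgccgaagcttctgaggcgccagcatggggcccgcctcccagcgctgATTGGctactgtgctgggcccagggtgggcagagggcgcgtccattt
Insig1 (chr5:28071272-28071411, plus strand): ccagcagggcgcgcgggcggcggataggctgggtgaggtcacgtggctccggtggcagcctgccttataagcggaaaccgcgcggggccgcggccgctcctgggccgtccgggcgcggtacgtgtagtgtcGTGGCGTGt
Insig2, the farthest upstream of 3 annotated starts (chr1:121332590-121332729, minus strand): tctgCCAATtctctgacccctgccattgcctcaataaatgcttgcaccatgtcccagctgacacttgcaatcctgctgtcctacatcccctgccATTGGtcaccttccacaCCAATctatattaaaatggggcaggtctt

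In Idi1 the boxes begin 45 and 14 bases before the start, in Nsdhl 109 and 20 bases before it, and in Tm7sf2 47 bases before it. Insig2 has boxes that begin 136, 46 and 29 bases before the start printed here, and the 140 bases before its other 2 annotated starts hold none. Over windows from 250 bases before to 50 bases after each start, searched on both strands, CCAAT was present in 21 of the 26 members with a RefSeq window, against 42.3% of the 11271 genes of the table with one. Among the enzymes it was present in 15 of 16. The GC box GGGCGG was found in 20 of the 26 members against 64.1% of genes, and it does not overlap the CCAAT box. CACNCCAC was found in 2 members, Acat2 and Insig1, against 7.87% of genes. A gene with several annotated starts counts as holding a motif if any window holds it, and 6 members have more than 1 start. These matches describe the letters only.

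The estimated library depths ran from 18900000 to 60500000 reads, and none of the members' values was listed at 0. The bearing of depth on the members was not tested. Hcfc1, read over all its exons, was higher in KO than in WT males by 0.50 to 1.11 on the log2 scale from days 1 to 2 onward. Such whole-gene reads do not measure the deletion, because the labels do not say which exons lie between the lox sites. Alb, the hepatocyte gene whose promoter drives the Cre, was lower in KO by 2.48 to 4.32 on the log2 scale in the same 4 windows. The sample sheet marks libraries B_1 (39) or B_2 (24), a mark whose meaning is not given. In males day 2 and day 9 are all B_2, and days 10 to 14 are all B_1. The 12 Het libraries are all B_1, while the KO and WT pairs of day 0 and day 1 hold both marks. Comparisons of late male days with day 0, and of Het with KO, therefore mix the mark with day or genotype.

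Levels below are RPKM, reads per kilobase of exon relative to library size, scaled so that the median gene is equal in all libraries. Differences are log2 values relative to that median gene, with the standard error and the Benjamini-Hochberg adjusted p of limma's moderated test over all tested genes, with a threshold of 0.05. The median gene itself stood higher in KO than in WT in the deposited values, by 0.23, 0.33, 0.23 and 0.85 in the windows of days 1 to 2, 3 to 5, 6 to 9 and 10 to 14. The verbs rose and fell are therefore kept for members past the threshold, with 1 sign, on both scales: relative to the median gene and in the deposited values. With a median shifted upward this rule undercounts falls, and members that passed only relative to the median gene are called lower relative to it.

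On day 0 the members showed no difference between KO and WT that passed the test. None of the 31 members passed limma's test, and none had an unadjusted p under 0.05, while 0.0327% of the 12221 tested genes rose and 0.0327% fell. The median member differed by -0.03. Idi1, the isopentenyl diphosphate isomerase, stood at 95.2 and 109 in WT and at 99.6 and 90.6 in KO. Other members spread more widely: Abcg5 stood at 30.7 and 15.8 in WT and at 18.5 and 20.1 in KO, and Mvd at 17.9 and 23.8 in WT and at 12.2 and 14.1 in KO. With 2 libraries in each group, all KO libraries lay below WT in 4 members (Mvd, Sqle, Msmo1 and Hsd17b7). In 5 others (Pmvk, Ggps1, Lss, Dhcr7 and Scap) all lay above, and the shares of all genes are not given for day 0. The KO minus WT differences of later days are not corrected for day 0.

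**Figure D1:**
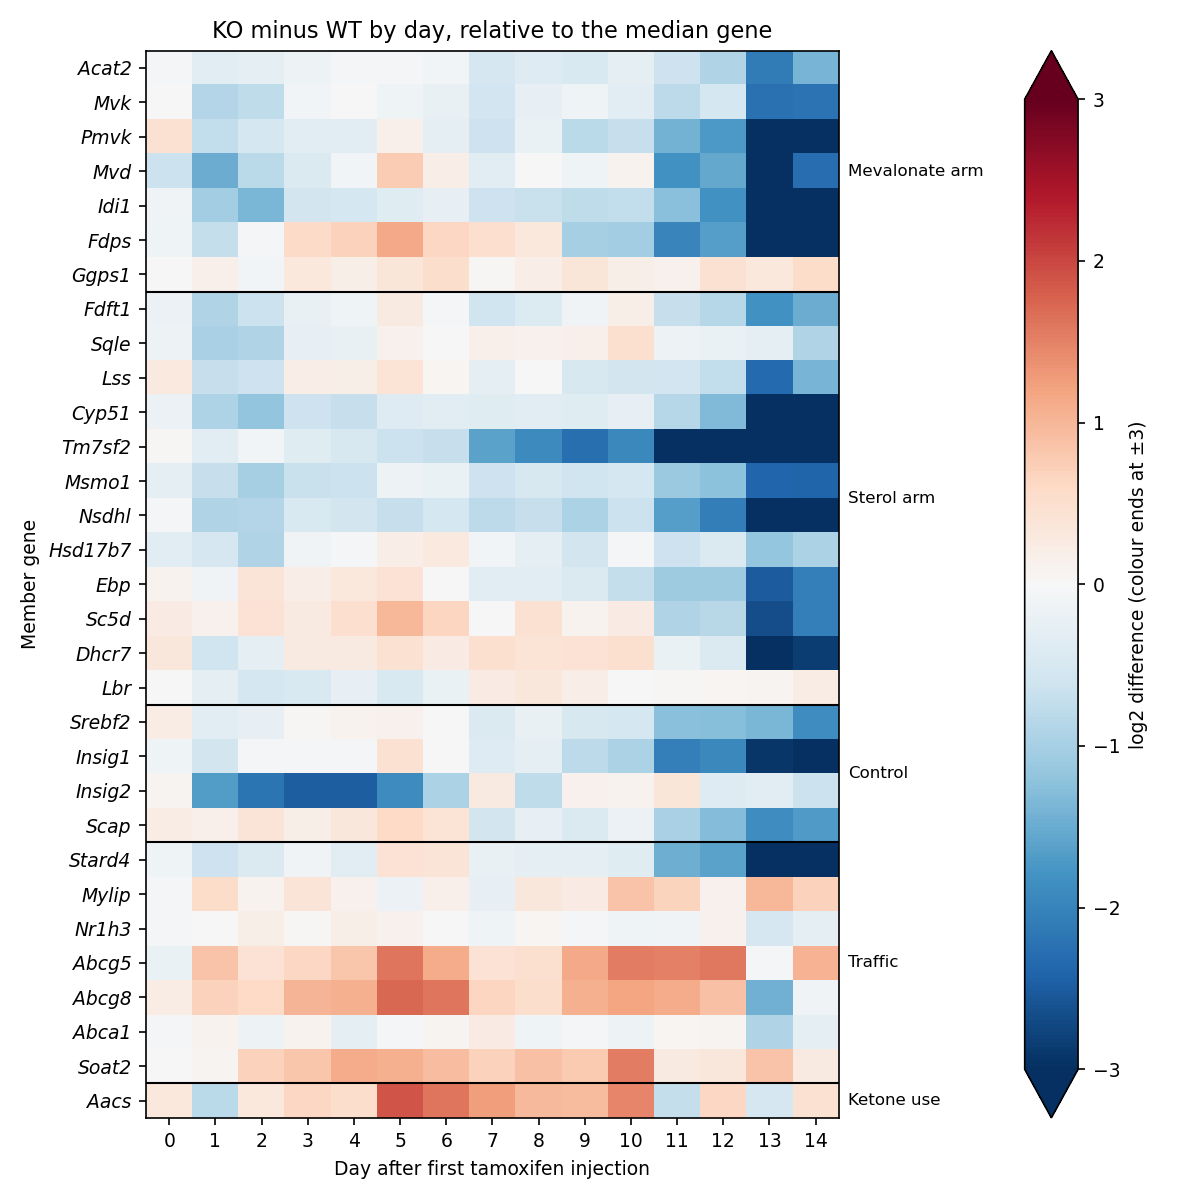
KO minus WT for each of the 31 members (rows, grouped by role) on each day (columns), as log2 difference of day means relative to the median gene; red is higher in KO, blue is lower in KO, and the colour ends at ±3. Insig2 is the lowest member on days 1 to 6, Tm7sf2 is the lowest on days 7 to 14, and 17 of the 19 enzymes are below 0 on days 1, 2 and 11 to 14, against 8 to 14 on days 3 to 10.

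On days 1 to 2 the synthesis enzymes were low in KO livers. Of the 19 enzymes 8 fell and none rose, where 1.82% of all tested genes fell and 9.05% rose. The 8 enzymes run from Mvd in the mevalonate arm to Hsd17b7 in the sterol arm, and the median enzyme differed by -0.66, against 0.04 for the median tested gene. Insig2 was the 9th member that fell. Relative to the median gene, Mvk (mevalonate kinase), Lbr (a sterol reductase of the nuclear membrane) and Stard4 (a carrier of cholesterol between membranes) were lower too, so that 12 members were lower on that scale, as were 6.7% of all genes.

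Idi1 stood at 149, 138, 240 and 192 in the WT libraries of days 1 and 2, and at 88.4, 55.0, 89.8 and 76.6 in the KO libraries. Every KO value lay below every WT value. The difference was -1.21 ± 0.21 (adjusted p = 0.000381), a 2.31-fold lower level. Sqle, squalene epoxidase, which makes the first oxygenated intermediate of the sterol arm, stood at 88.8, 90.7, 101 and 89.9 in WT and at 54.5, 38.9, 57.7 and 44.3 in KO. These ranges did not overlap either, and Sqle differed by -0.94 ± 0.17 (adjusted p = 0.000675).

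Cyp51, the lanosterol demethylase, stood at 116, 118, 163 and 152 in WT and at 81.3, 46.0, 78.3 and 60.8 in KO, again without overlap. The difference was -1.06 ± 0.26 (adjusted p = 0.00683). Nsdhl, a dehydrogenase of the step that strips methyl groups from the sterol ring, stood at 69.6, 74.4, 120 and 110 in WT and at 61.0, 24.1, 71.0 and 55.4 in KO. The highest KO value exceeded the lowest WT value, and Nsdhl differed by -0.89 ± 0.20 (adjusted p = 0.00333). Mvd (mevalonate diphosphate decarboxylase), Msmo1 (methylsterol monooxygenase), Fdft1 (squalene synthase) and Hsd17b7 (a ketosteroid reductase of the demethylation step) fell by 1.15, 0.85, 0.78 and 0.71. In 9 members, Mvk and Stard4 among them, all 4 KO libraries lay below all 4 WT libraries, which was the case for 5.88% of all genes; no member had all KO libraries above WT, against 5.97%.

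The WT livers did not stand still over these days. Against their own day 0, WT males rose in Sqle by 0.94 ± 0.21 (adjusted p = 0.00622) and in Srebf2, the gene of SREBP2, by 0.69 ± 0.20 (adjusted p = 0.0269), where 4.53% of all genes rose and 0.876% fell. The median of the 19 enzymes was 0.61 above day 0 in WT and 0.11 below it in KO there, and no enzyme passed in KO against its own day 0 (3 of 19 had an unadjusted p under 0.05). Day 2 was the WT high point. The median enzyme stood 0.87 and 0.86 above the WT day 0 mean in the WT libraries of that day and 0.24 above and 0.12 below it in the KO libraries. The Het library of day 1 stood at 0.56, above WT day 1 at 0.23 and 0.39, with Idi1 at 197 and Sqle at 93.1. The Het library of day 0 stood at -0.24.

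These early calls leaned on single libraries. Without the KO library of day 1 replicate 2, in which Nsdhl stood at 24.1, 5 members passed relative to the median gene, and without the other KO library of day 1, 15 passed. Without KO day 2 replicate 2 the number was 6, and without WT day 1 replicate 2 it was 7. Fdft1 and Msmo1 lost their calls in 6 of the 8 fits that left out a library, Mvd in 3, Hsd17b7 in 2 and Cyp51 in 1, while Insig2, Idi1, Sqle and Nsdhl kept theirs in all 8. In the B_2 libraries alone the 9 members that fell were all negative with a median of -1.13 and all passed. In the B_1 libraries alone, which hold 1 KO and 1 WT library of day 1, all 9 were negative with a median of -0.51 and none passed. Of 10 hepatocyte markers 1 passed in this window, relative to the median gene alone (Cyp2e1, a cytochrome P450, -0.56 ± 0.19, adjusted p = 0.042). Their median was 0.06, and the sum of the 10 was 24200 to 28600 in KO and 21800 to 31500 in WT. Alb, which is not among the 10, differed by -3.90 here. Of 7 tested T, B and NK cell markers 4 rose, with a median of 1.11 and a sum of 5.11 to 8.58 in KO and 2.21 to 4.83 in WT. Cd8a was listed at 0 in part of the WT libraries. Of 4 genes listed for lipid-laden macrophages (Abcg1, Lpl, Cd36 and Lgals3) and of 5 tested cholangiocyte markers, 1 each rose, beside 9.05% of all genes. Which cells held the reads of these 4 genes was not tested, here or in later windows. No tested marker of macrophages and Kupffer cells, stellate cells and fibroblasts, endothelial cells or neutrophils rose. The part of these cells in the falls was not tested. In bulk liver, fewer cells of a type and less RNA per cell cannot be told apart.

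**Figure D2:**
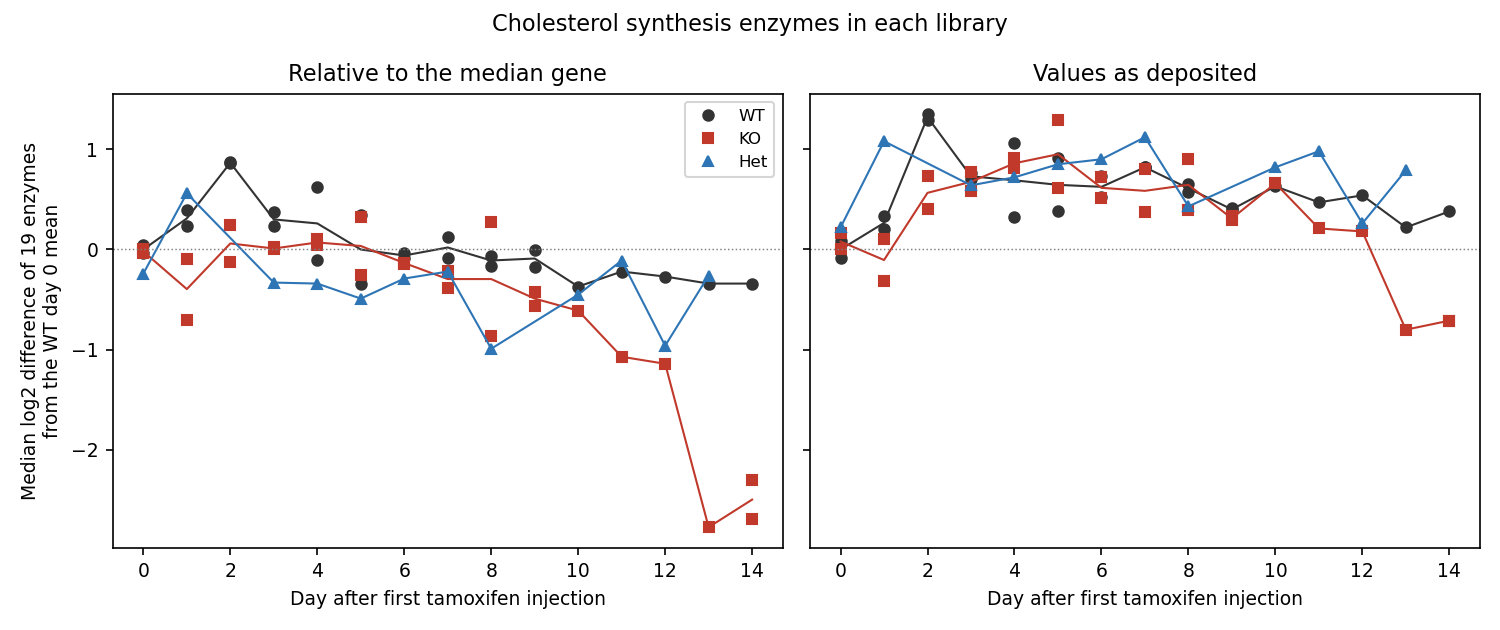
Median over the 19 synthesis enzymes of the log2 difference from the WT day 0 mean (vertical axis) by day (horizontal axis), for each library (points) and the mean of each day (lines); left, relative to the median gene, and right, in the values as deposited. Relative to the median gene the WT libraries of day 2 stand at 0.87 and 0.86, and the KO libraries of days 13 and 14 stand at -2.77, -2.30 and -2.69, below all WT and Het libraries.

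Among the 4 control genes, Insig2 was low early and did not pass later relative to the median gene. INSIG2 is the SCAP-holding protein whose liver transcript is known to fall with insulin and not to depend on SREBP. In the WT libraries of days 1 and 2 it stood at 199, 148, 242 and 195, and in the KO libraries at 48.2, 60.2, 40.3 and 56.5. All KO values were far below all WT values, with a difference of -1.93 ± 0.25 (adjusted p = 1.22e-05). On days 3 to 5 Insig2 ranged from 24.8 to 62.9 with a median of 45.2 in 6 KO libraries and from 156 to 267 with a median of 198 in 6 WT libraries. The groups did not overlap, and the difference was -2.28 ± 0.20 (adjusted p = 1.93e-09), a 4.84-fold lower level.

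By day 6 the 2 KO libraries stood apart, at 57.3 and 150, and by day 7 they were at 162 and 218, beside 137 and 178 in WT. On day 8 both KO libraries, at 89.6 and 113, were again below the WT pair, at 181 and 159, and on day 9 they were at 139 and 171 beside 154 and 128. Over days 6 to 9 the difference was -0.33 ± 0.18 (adjusted p = 0.109), and over days 10 to 14 it was -0.18 ± 0.22 (adjusted p = 0.459), so neither passed relative to the median gene. Against KO day 0, Insig2 fell by 1.74 on days 1 to 2 and by 2.04 on days 3 to 5. The fall on days 3 to 5 was present in both subsets of the sample sheet, at -2.55 within B_1 (adjusted p = 9.32e-06) and -2.00 within B_2 (adjusted p = 5.28e-06).

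Het females had 1 library a day, with low Insig2 values from day 3 to day 6. Insig2 began at 145 and 96.4 (days 0 and 1) and then stood at 54.5, 33.0, 27.3 and 20.8 from day 3 to day 6. It was at 86.1 and 120 in the next 2 livers and between 93.4 and 158 after day 9. The lowest Het value, 20.8 on day 6, lay below the KO values of that day. Against days 0 to 1, the Het difference on days 3 to 5 was -1.69 ± 0.60 and did not pass (adjusted p = 0.116).

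**Figure D3:**
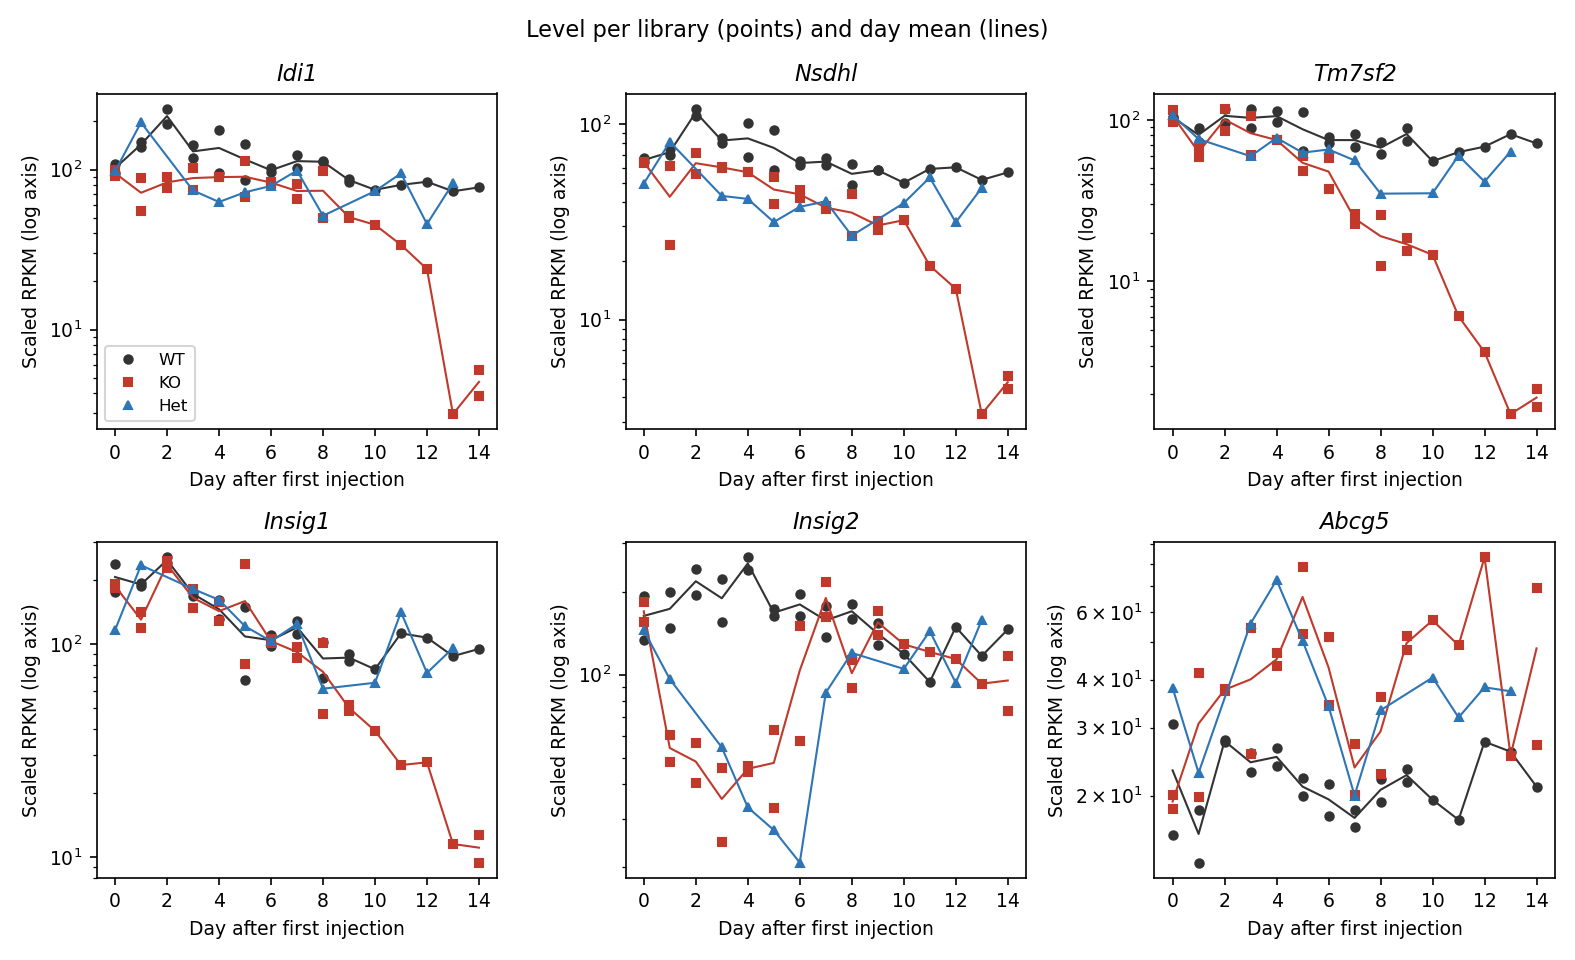
Level of 6 members in each library (points; scaled RPKM on a log axis) by day after the first injection, with lines through the day means, for WT (black circles), KO (red squares) and Het (blue triangles). Idi1, Nsdhl, Tm7sf2 and Insig1 decline in KO toward day 13, Insig2 is low in KO and Het on days 3 to 5 and overlaps the WT levels on days 7 and 9 but is below them on day 8, and the day mean of Abcg5 is higher in KO than in WT on every day but 0 and 13.

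Insig1, the INSIG gene that SREBP2 itself induces, showed no early difference that passed. Its day means differed by -0.55 on day 1 and -0.07 on day 2. It stood at 186, 194, 240 and 255 in WT and at 141, 119, 244 and 227 in KO on days 1 and 2, with overlapping ranges and a difference of -0.31 ± 0.25 (adjusted p = 0.439). On days 3 to 5 it ranged from 80.6 to 237 with a median of 152 in KO and from 67.7 to 176 with a median of 155 in WT. On days 6 to 9 it ranged from 46.8 to 105 with a median of 91.6 in KO and from 68.8 to 128 with a median of 100 in WT, and neither window passed. Srebf2 on days 1 and 2 stood at 19.2, 24.2, 24.8 and 24.8 in WT and at 18.3, 16.5, 21.7 and 20.3 in KO, with overlap and a difference of -0.28 ± 0.16 (adjusted p = 0.26). On days 3 to 5 Srebf2 ranged from 17.7 to 22.1 in KO (median 19.5) and from 14.0 to 24.0 in WT (median 19.4). On days 6 to 9 it ranged from 11.3 to 18.3 in KO (median 14.4) and from 13.7 to 21.0 in WT (median 19.1), and it was lower relative to the median gene (-0.29 ± 0.11, adjusted p = 0.0303) but not in the deposited values.

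On days 3 to 5 more members rose than fell. Of the 31 members 8 rose and 1 fell (Insig2), where 26.5% of all genes rose and 9.61% fell, so the count of rises was near the background. By role, 3 of 7 traffic genes rose, as did 2 of 7 mevalonate enzymes, 1 of 12 sterol enzymes, 1 of 4 control genes and Aacs. The traffic genes were Abcg8 and Abcg5, whose proteins pair to pump sterols into bile, and Soat2, which esterifies cholesterol for storage and lipoproteins. Fdps (farnesyl diphosphate synthase), Sc5d (a sterol desaturase), Scap and Ggps1 (geranylgeranyl diphosphate synthase, at a branch away from sterols) were the others. The median enzyme was at -0.06, and the enzyme medians of days 3 to 6 lay between -0.22 and 0.16. Idi1, Cyp51, Tm7sf2, Nsdhl and Lbr were lower relative to the median gene, by 0.38 to 0.57, as were 24.5% of all genes. In 2 members (Insig2 and Lbr) all KO libraries lay below WT, against 12.4% of genes, and in 2 (Abcg8 and Soat2) all lay above, against 12.5%. Ggps1 lost its call in 7 of the 12 fits that left out a library, and Scap in 3. In the same livers 3 of 13 macrophage and Kupffer cell markers rose, with a sum of 209 to 483 in KO and 162 to 398 in WT, as did 3 of 4 genes of lipid-laden macrophages, at 29.5 to 70.6 and 28.4 to 45.9. Of the tested markers of other cells, 2 of 7 of T, B and NK cells, 2 of 5 of cholangiocytes and 2 of 2 of neutrophils rose. None of 8 stellate cell and fibroblast or 6 endothelial markers did, beside 26.5% of all genes. Of 10 hepatocyte markers 1 rose and 2 fell. Their part in the changes of the members was not tested.

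Abcg8 ranged from 25.6 to 79.5 with a median of 45.9 in KO and from 15.6 to 23.9 with a median of 17.6 in WT. The groups did not overlap, and the difference was 1.26 ± 0.23 (adjusted p = 7.51e-05), a 2.40-fold higher level. Abcg5 ranged from 25.7 to 78.6 with a median of 49.8 in KO and from 20.0 to 26.5 with a median of 23.4 in WT, with 1 KO library inside the WT range. Its difference was 1.02 ± 0.22 (adjusted p = 0.000358). The genes lie head to head and their mm9 annotations overlap on opposite strands, so without strand in the counting, which the sources used here do not state, some of their reads cannot be told apart. The Het libraries of days 3, 4 and 5 held Abcg5 at 55.9, 72.5 and 50.4 and Abcg8 at 43.9, 49.4 and 34.4, each above every WT library of those days, while Het day 0 stood at 38.1 and 37.8.

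Soat2 ranged from 19.7 to 27.1 in KO and from 8.13 to 13.6 in WT without overlap, and differed by 1.00 ± 0.11 (adjusted p = 7.23e-08). Aacs ranged from 14.0 to 37.0 with a median of 21.1 in KO and from 2.90 to 16.9 with a median of 12.9 in WT, with overlap, and differed by 1.01 ± 0.30 (adjusted p = 0.0067). Fdps ranged from 370 to 726 with a median of 473 in KO and from 162 to 379 with a median of 306 in WT, and differed by 0.80 ± 0.22 (adjusted p = 0.00353). The 2 lowest KO values of Fdps, 370 and 375, lay inside the WT range. Within B_1 these differences were 1.11 for Soat2, 1.45 for Aacs and 1.18 for Fdps, and within B_2 they were 0.89, 0.57 and 0.42. All 8 risers kept their sign in both subsets, 1 of them past the threshold in B_1 and 3 in B_2.

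Abca1, which loads cholesterol onto apolipoprotein A-I, and Nr1h3, the gene of the main liver LXR, are the other members of the sterol sensing and export side. Abca1 differed by -0.07 ± 0.10 and Nr1h3 by 0.12 ± 0.07 on days 3 to 5, and neither passed. From days 1 to 2 through days 6 to 9 their differences lay between -0.07 and 0.12. Mylip, the LXR target that marks lipoprotein receptors for degradation, differed by 0.11 ± 0.14 on days 3 to 5 and did not pass.

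**Figure D4:**
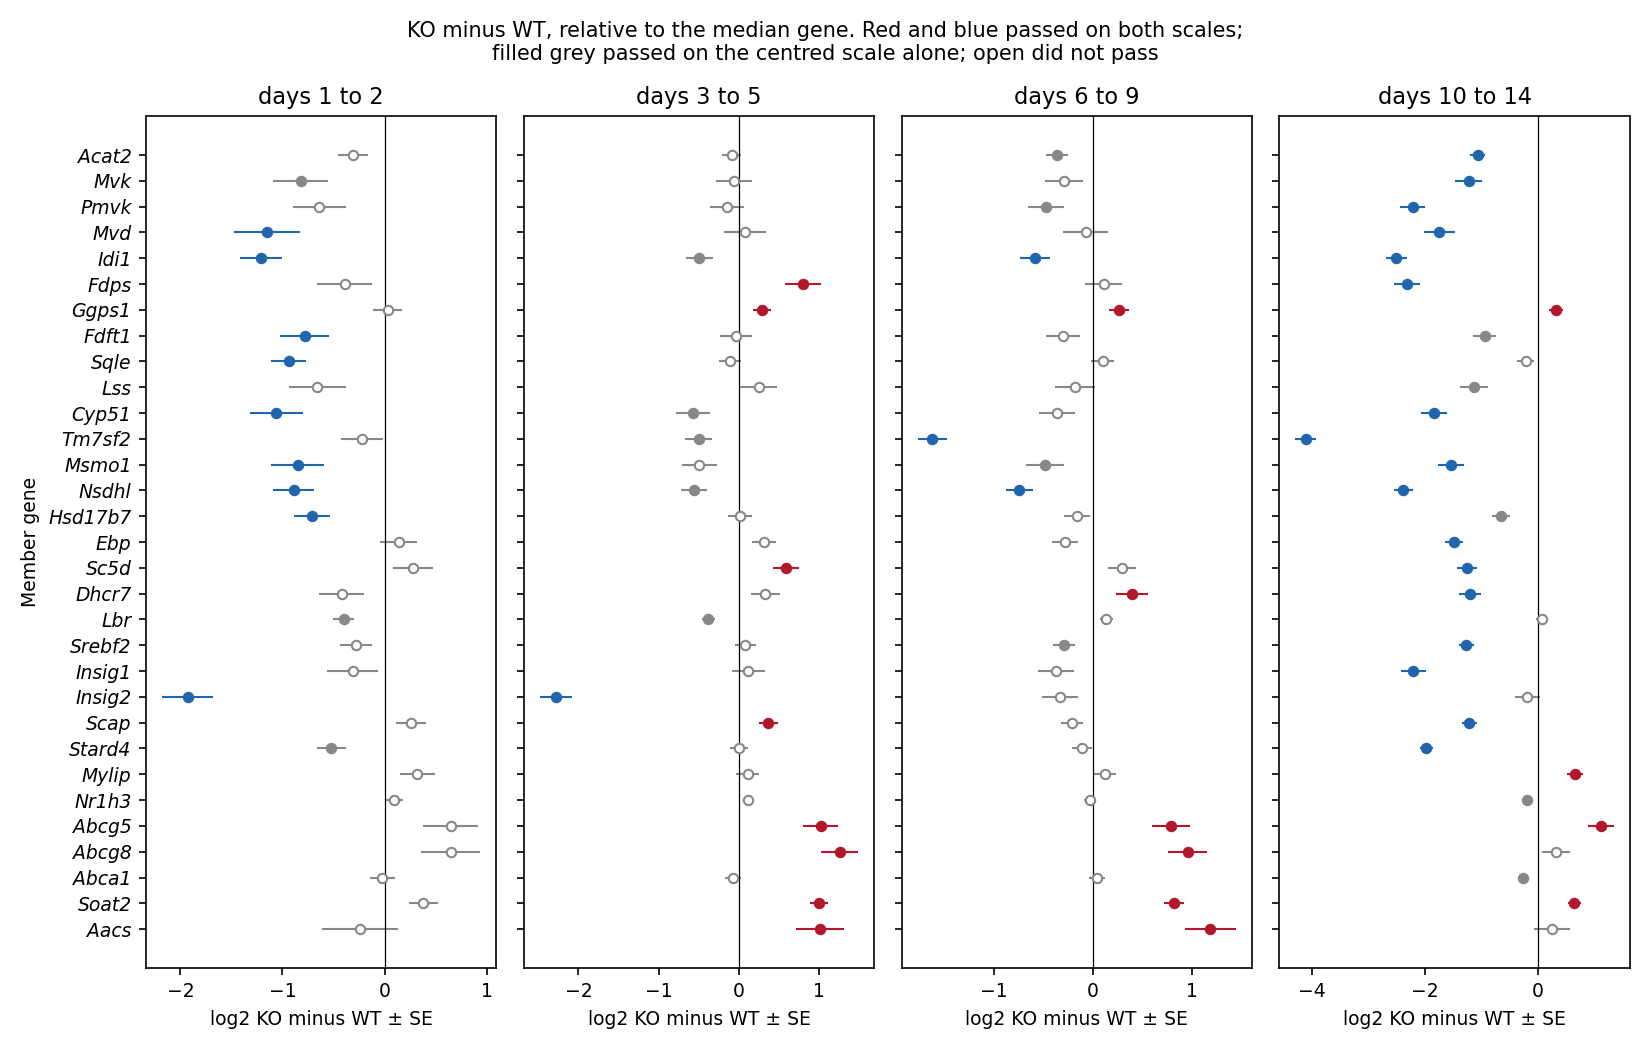
KO minus WT for each member in 4 windows, as log2 difference relative to the median gene with its standard error; each panel has its own horizontal scale. Blue points fell and red points rose on both scales, filled grey points passed only relative to the median gene, and open points did not pass. Blue points number 9, 1, 3 and 17 in the 4 windows, where 1.82%, 9.61%, 18.8% and 11.1% of all genes fell. Red points number 0, 8, 6 and 4, where 9.05%, 26.5%, 35.1% and 38.6% of all genes rose.

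On days 6 to 9 the members that fell were 3 enzymes. Of the 31 members 6 rose and 3 fell, where 35.1% of all genes rose and 18.8% fell, both shares above those of the members. The 3 were Tm7sf2, Nsdhl and Idi1. In 2 of them all KO libraries lay below WT, against 12.5% of genes, and in Soat2 all lay above, against 12.1%. Tm7sf2, one of the pair of enzymes that reduce the ring double bond left by Cyp51, ranged from 12.4 to 58.2 with a median of 24.3 in 8 KO libraries and from 61.5 to 89.0 with a median of 73.6 in 8 WT libraries. The groups did not overlap, and the difference was -1.62 ± 0.15 (adjusted p = 5.48e-10), a 3.07-fold lower level. The KO pairs, in order of day, were 37.4 and 58.2, 22.8 and 26.2, 12.4 and 25.7, and 18.5 and 15.5.

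Nsdhl ranged from 26.7 to 45.9 with a median of 37.4 in KO and from 48.9 to 67.2 with a median of 61.8 in WT, without overlap, and differed by -0.74 ± 0.14 (adjusted p = 5.89e-05). Idi1 ranged from 49.9 to 97.4 with a median of 73.5 in KO and from 84.1 to 123 with a median of 102 in WT. The KO libraries at 84.2 (day 6) and 97.4 (day 8) lay inside the WT range, and Idi1 differed by -0.58 ± 0.15 (adjusted p = 0.00148). Cyp51 ranged from 41.0 to 89.7 in KO and from 70.4 to 99.1 in WT (medians 60.9 and 77.2) and Sqle from 41.9 to 73.6 and from 44.3 to 66.0 (medians 56.2 and 53.1), and neither passed. Within B_1 the differences of Tm7sf2, Nsdhl and Idi1 were -1.69, -0.85 and -0.58, and within B_2 they were -1.57, -0.67 and -0.58.

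The rises of days 6 to 9 were those of Aacs, Abcg8, Soat2, Abcg5, Dhcr7 (a reductase late in the sterol arm) and Ggps1, the last 2 of which lost their calls in 8 and 5 of the 16 fits that left out a library. Aacs ranged from 9.92 to 22.9 with a median of 19.1 in KO and from 4.91 to 10.6 with a median of 7.45 in WT, and 1 KO library lay within the WT range. It differed by 1.19 ± 0.26 (adjusted p = 0.000303). Abcg8 ranged from 15.1 to 48.7 with a median of 29.1 in KO and from 10.2 to 18.6 with a median of 14.9 in WT, and differed by 0.96 ± 0.20 (adjusted p = 0.00021). Abcg5 ranged from 20.1 to 51.8 with a median of 35.2 in KO and from 16.6 to 23.5 with a median of 20.3 in WT. It differed by 0.79 ± 0.19 (adjusted p = 0.000771), and its lowest KO libraries overlapped WT. Soat2 differed by 0.82 ± 0.10 (adjusted p = 6.27e-08) without overlap. In the same livers 7 of 8 stellate cell and fibroblast markers and 4 of 4 genes of lipid-laden macrophages rose. So did 3 of 5 tested cholangiocyte markers and 4 of 13 macrophage and Kupffer cell markers, beside 35.1% of all genes. The sums of these lists, in that order, were 123 to 239, 62.6 to 133, 32.4 to 141 and 442 to 790 in KO, against 101 to 143, 37.0 to 56.0, 26.4 to 45.1 and 387 to 732 in WT. Of 6 endothelial, 7 tested T, B and NK cell and 2 tested neutrophil markers none rose. Of 10 hepatocyte markers 2 rose and 2 fell. Their part in the rises and falls of the members was not tested.

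On days 10 to 14 the pathway fell in KO livers along most of its length. Of the 31 members 17 fell and 4 rose, where 11.1% of all genes fell and 38.6% rose. Relative to the median gene 22 members were lower, against 33.5% of all genes. Of the 19 enzymes 13 fell and 1 rose (Ggps1), and the median enzyme differed by -1.25 relative to the median gene and by -0.47 in the deposited values, against 0.08 and 0.85 for the median of all tested genes. In 16 members all 6 KO libraries lay below all 5 WT libraries in the scaled levels, which was the case for 21.3% of all genes. The decline was steep at the end. Relative to the median gene, the enzyme median was -0.27, -0.85 and -0.90 on days 10, 11 and 12, then -2.50 and -2.22 on days 13 and 14. The deposited values gave smaller gaps. In them, from the WT day 0 mean, the KO libraries stood at 0.66, 0.21, 0.18 and -0.80 on days 10 to 13, then at -0.71 and -0.71. The WT libraries of days 10 to 14 stood at 0.63, 0.47, 0.54, 0.22 and 0.38.

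Tm7sf2 had the largest difference of the set. It stood at 55.4, 63.1, 68.2, 81.5 and 71.4 in the WT libraries of days 10 to 14, and at 14.6, 6.08, 3.65 and 1.51 in the KO libraries of days 10 to 13 and 2.15 and 1.67 on day 14. The difference was -4.11 ± 0.18 (adjusted p = 5.41e-16), a 17.2-fold lower level, and it was -3.33 in the deposited values. Lbr, the other reductase of that step, ranged from 3.78 to 5.10 with a median of 4.31 in KO and from 3.60 to 5.14 with a median of 3.95 in WT and did not pass relative to the median gene (0.07 ± 0.09, adjusted p = 0.468). Per length, the scaled RPKM level of Tm7sf2 was above that of Lbr in all 5 WT livers, while the KO livers of days 12 to 14 held less Tm7sf2 than Lbr.

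Idi1 stood at 74.8, 80.3, 84.0, 73.2 and 77.5 in WT and at 45.2, 33.9, 23.9 and 2.97 in KO on days 10 to 13, then at 5.58 and 3.86 on day 14. No KO value reached the WT range, and the difference was -2.50 ± 0.18 (adjusted p = 9.64e-12). Nsdhl stood at 50.2, 59.1, 60.2, 51.9 and 56.7 in WT and at 32.3, 18.9, 14.4 and 3.29 in KO, then at 5.16 and 4.42. Its difference was -2.38 ± 0.17 (adjusted p = 6.42e-12). Cyp51 ranged from 4.41 to 50.6 with a median of 18.1 in KO, below the WT values of 59.9, 64.3, 61.7, 55.5 and 62.9, and differed by -1.83 ± 0.23 (adjusted p = 9.72e-08).

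The other enzymes that fell in this window were Fdps (-2.31), Pmvk (-2.21), Mvd (-1.74), Msmo1 (-1.54), Ebp (-1.48), Sc5d (-1.25), Mvk (-1.22), Dhcr7 (-1.20) and Acat2 (-1.06). Fdps, which had been above WT on days 3 to 5, reversed to a range of 12.8 to 77.1 in KO against 149 to 176 in WT. Lss (lanosterol synthase), Fdft1 and Hsd17b7 were lower only relative to the median gene, by 1.12, 0.94 and 0.65. Sqle stood apart from its neighbours in the pathway. It was at 42.4, 45.9, 41.2, 38.4 and 34.1 in WT and at 59.1, 41.2, 35.9 and 32.1 in KO on days 10 to 13, then at 17.2 and 19.3 on day 14, with a difference of -0.21 ± 0.15 (adjusted p = 0.216). In the deposited values Sqle was at 49.7, 43.3, 42.1, 33.2 and 33.1 in WT. There the KO libraries stood at 83.6, 58.3, 52.5 and 73.7 on days 10 to 13, then at 30.3 and 44.5.

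The control genes fell with the enzymes, except Insig2. Insig1 stood at 76.0, 112, 107, 87.6 and 94.7 in WT and at 39.1, 27.0, 27.8 and 11.5 in KO on days 10 to 13, then at 12.7 and 9.41 on day 14. No KO value reached the WT range, and the difference was -2.20 ± 0.22 (adjusted p = 2.55e-09). Srebf2 stood at 15.3, 18.4, 16.5, 14.3 and 17.4 in WT and at 10.6, 7.74, 6.81 and 5.53 in KO, then at 4.5 and 5.09, again without overlap. That separation held for the scaled levels only. In the deposited values the Srebf2 ranges overlapped, with KO day 13 at 12.7 and WT day 13 at 12.3. Relative to the median gene Srebf2 differed by -1.26 ± 0.14 (adjusted p = 1.65e-08), and Scap differed by -1.21 ± 0.13. The median of the 4 control genes was -1.23 on that scale and -0.46 in the deposited values. Insig2 stood at 119, 94.1, 149, 117 and 146 in WT and at 129, 121, 114 and 92.8 in KO, then at 117 and 73.6, with overlap. In the deposited values Insig2 was higher in KO, at 167 to 213 against 88.9 to 152 in WT.

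Traffic genes went both ways late. Stard4 fell by 1.97. Abcg5 ranged from 25.4 to 83.1 with a median of 53.0 in KO, and stood at 19.5, 17.3, 27.6, 26.0 and 21.1 in WT. It differed by 1.12 ± 0.23 (adjusted p = 0.000133), and the KO libraries of day 13 and of day 14 replicate 2, at 25.4 and 27.1, lay inside the WT range. Abcg8 ranged from 10.4 to 46.5 with a median of 28.1 in KO, stood at 17.7, 12.0, 25.4, 28.0 and 21.1 in WT, and did not pass (0.32 ± 0.25, adjusted p = 0.247). Mylip ranged from 4.43 to 6.76 in KO and from 2.94 to 4.05 in WT and rose by 0.66 ± 0.14 (adjusted p = 0.000237). It was the 1 member with all KO libraries above WT, against 23.2% of genes. Soat2 rose by 0.65. Aacs ranged from 5.19 to 15.1 in KO and from 4.78 to 16.3 in WT and did not pass. Abca1 and Nr1h3 were lower relative to the median gene (-0.25 and -0.18) and higher in the deposited values (0.52 and 0.59).

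Other cell types and hepatocyte markers moved in the same late livers. All 10 hepatocyte markers were lower in KO relative to the median gene on days 10 to 14 and 6 fell on both scales, with a median of -1.19 and a range from -1.99 for Cyp2e1 to -0.42. Their sum was 5260 to 16000 in KO and 18700 to 24900 in WT. The median enzyme, at -1.25, was therefore close to the median hepatocyte marker, and 5 of the 19 enzymes (Tm7sf2, Idi1, Nsdhl, Fdps and Pmvk) lay below the lowest of these markers. Alb, which is not among the 10, differed by -4.32 ± 0.40, below every enzyme. Among markers of other cells, 8 of 13 of macrophages and Kupffer cells, 8 of 8 of stellate cells and fibroblasts and 4 of 5 of cholangiocytes rose, with sums of 577 to 834, 186 to 308 and 71.8 to 397 in KO against 282 to 644, 122 to 149 and 32.6 to 49.4 in WT. Of 4 genes of lipid-laden macrophages 4 rose, as did 3 of 6 endothelial and 1 of 7 tested T, B and NK cell markers, but 0 of 2 tested neutrophil markers. Of all genes 38.6% rose and 11.1% fell. Their part in the late falls and rises of the members was not tested. The days 10 to 14 libraries are all B_1, so no comparison with the other subset could be made.

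**Figure D5:**
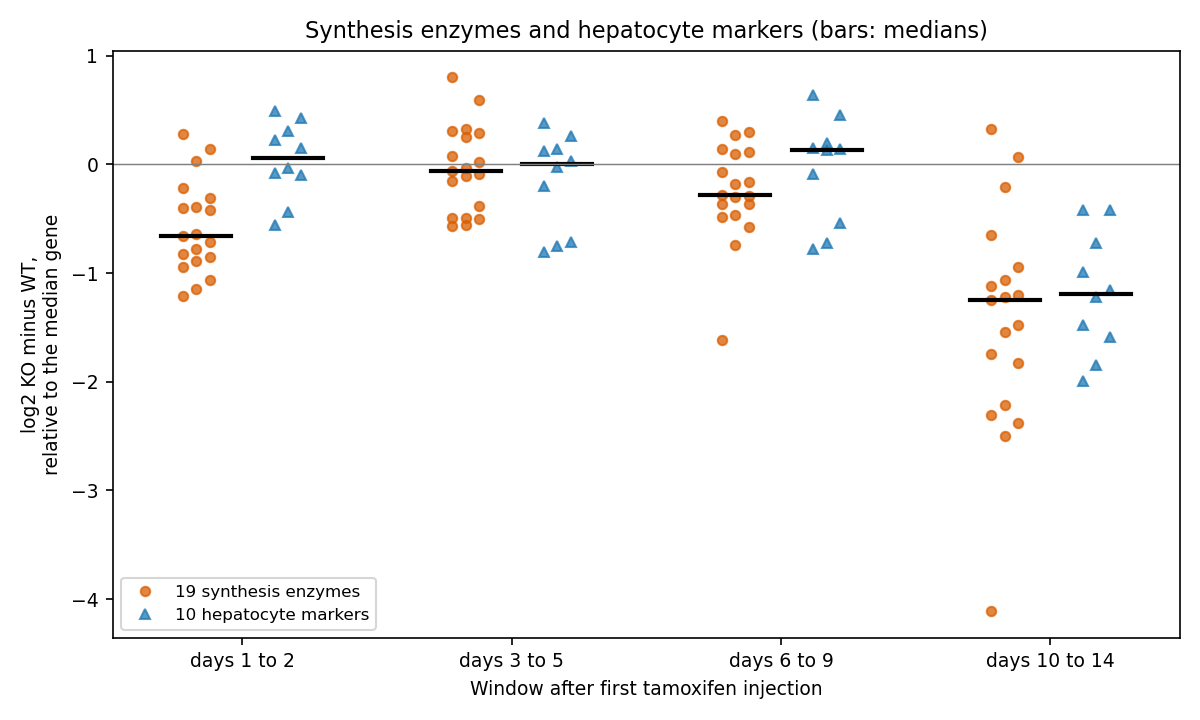
KO minus WT as log2 difference relative to the median gene (vertical axis) for the 19 synthesis enzymes (orange circles) and 10 hepatocyte markers (blue triangles) in 4 windows, with black bars at the medians. Alb is not among these markers. The enzyme median lies below the marker median on days 1 to 2 (-0.66 and 0.06), and the medians lie close together on days 10 to 14 (-1.25 and -1.19).

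Followed within KO males, the same late decline was seen against their own day 0. Relative to the median gene 22 members were lower on days 10 to 14, as were 33.4% of all genes, and on both scales 9 fell and 2 rose (Mylip and Abcg5), where 4.89% of all genes fell and 35.6% rose. The differences were -4.75 ± 0.24 for Tm7sf2 (adjusted p = 2.75e-14), -3.23 for Fdps, -3.18 for Insig1, -2.78 for Idi1, -2.66 for Pmvk, -2.58 for Nsdhl, -2.45 for Mvd, -2.27 for Stard4 and -1.94 for Cyp51. In the 3 earlier windows the members that fell numbered 1, 1 and 1, being Insig2, Insig2 and Tm7sf2, against 1.38%, 2.56% and 5.41% of all genes. Those that rose numbered 0, 1 (Abcg5) and 3 (Abcg5, Mylip and Lbr), against 6.61%, 22.4% and 30.6%.

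WT males were steadier. After the early rise of Sqle and Srebf2, no member rose or fell on days 3 to 5 (2 of 31 had an unadjusted p under 0.05 and were lower relative to the median gene, as were 9.1% of all genes), and Mylip alone rose on days 6 to 9 (0.60 ± 0.19, adjusted p = 0.0142) and on days 10 to 14 (0.59 ± 0.20, adjusted p = 0.0221), while 12.4%, 18.0% and 16.0% of all genes rose in these windows and 0.794%, 1.32% and 0.884% fell. Relative to the median gene, Mvd, Insig1, Fdps and Stard4 were lower than day 0 on days 10 to 14, by 1.37, 1.11, 1.06 and 0.43, as were 18.0% of all genes. These WT calls rest on the day 0 pair: without WT day 0 replicate 1, 0, 0, 2 and 2 members passed in the 4 windows in place of 2, 2, 7 and 5. The WT day 0 libraries number 2, and 12 to 19 members were higher than day 0 in the deposited values of the 4 windows, in which the median gene stood 0.17 to 0.70 above day 0.

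In Het females the pathway showed few changes that passed. Against days 0 to 1, no member passed relative to the median gene on days 3 to 5 (6 of 31 with an unadjusted p under 0.05) or on days 6 to 8 (9 of 31), by limma's test, where 3.5% and 9.54% of all genes were higher and 1.92% and 3.64% lower. Without the Het library of day 0, 4, 9 and 11 members passed in the 3 windows in place of 0, 0 and 2. On days 10 to 13 Mylip rose by 1.04 ± 0.26 (adjusted p = 0.0184), where 13.5% of all genes rose and 0.503% fell, and Stard4 was lower relative to the median gene. The enzyme median of each Het library lay between -0.99 and 0.56 relative to the WT day 0 mean, and the libraries of days 8 and 12 were the lowest, at -0.99 and -0.96. Tm7sf2 began at 107 and 76.0, was at 34.9 in the day 8 library, and ended at 35.1, 60.0, 41.4 and 63.6. Idi1 stood at 97.5 and 197 on days 0 and 1 and at 73.4, 94.7, 45.7 and 82.2 on days 10 to 13, and Insig1 at 116 and 234 and then at 65.7, 141, 73.1 and 95.6. Srebf2 stood at 18.3 and 28.3 and then at 15.7, 18.7, 14.4 and 16.7.

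The difference between the Het and KO changes was tested directly, as the change from days 0 to 1 to days 10 to 13. Relative to the median gene, 10 members had the higher change in Het and 1, Soat2, the lower, as had 20.1% and 20.0% of all genes. On both scales 5 members, Tm7sf2, Insig1, Fdps, Nsdhl and Stard4, passed as higher in Het and Soat2 as lower, where 6.44% of all genes were higher and 20.0% lower. Tm7sf2 differed by 3.23 ± 0.35 (adjusted p = 1.33e-08), Insig1 by 1.81 ± 0.44 (adjusted p = 0.0014) and Fdps by 1.73 ± 0.49 (adjusted p = 0.00534). Without the KO library of day 13, 5 members passed relative to the median gene in place of 11, and without the Het library of day 0, 7 passed.

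Related genes outside the set gave the surroundings of these changes, and lists of them were read by how many passed. The shares of all genes that rose in the 4 windows, 9.05%, 26.5%, 35.1% and 38.6%, and that fell, 1.82%, 9.61%, 18.8% and 11.1%, stand beside every count that follows, and counts near them say nothing particular of a list. Of 10 measured genes that supply acetyl-CoA and reductant, 4 rose on days 3 to 5 (26.5% of all genes), with the largest differences in G6pdx, which opens the NADPH-yielding pentose phosphate route (2.93 ± 0.30, adjusted p = 1.54e-08), and Acly, ATP citrate lyase (2.13 ± 0.25, adjusted p = 1.43e-07), with Por and Cyb5r3. On days 1 to 2 G6pdx alone rose (2.68). On days 6 to 9 Acly rose (1.42) and Acss2, acetyl-CoA synthetase, fell (-1.06). On days 10 to 14, 2 rose (38.6% of all genes) and 1 fell, Acss2 (-2.45 ± 0.29, adjusted p = 5.62e-08), while Idh1, an NADPH-yielding isocitrate dehydrogenase, was lower relative to the median gene, by 0.66.

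Of 9 other genes listed as regulated by SREBP proteins or sterols, fatty acid genes among them, 6 rose on days 3 to 5 and none fell (26.5% and 9.61% of all genes). Among the 6 were Fads2, a fatty acid desaturase (1.33 ± 0.21), Elovl6 (0.90), Elovl5 (0.80) and Stard5 (0.37). The median of the 12 sterol arm enzymes was -0.07 in that window. On days 10 to 14, 1 rose and 3 fell (38.6% and 11.1% of all genes): Rdh11, a retinal reductase (-3.32 ± 0.21, adjusted p = 3.99e-13), Fads1 (-1.87) and Elovl5 (-1.31). Rdh11 had fallen by 1.93 on days 6 to 9, when Lpin1 (1.18) and Fads2 (0.92) were among 4 that rose. Of 14 genes of SREBP processing and sterol sensing, 1, 3, 5 and 4 rose in the 4 windows and 0, 0, 1 and 0 fell, near or below the shares of all genes. Srebf1, the gene of the fatty acid regulators SREBP1a and SREBP1c, rose by 0.75 ± 0.22 on days 1 to 2 (adjusted p = 0.022) and 0.86 ± 0.18 on days 3 to 5 (adjusted p = 0.000285). Srebf1 was lower relative to the median gene on days 10 to 14 (-1.01 ± 0.19). Mbtps1, a protease that cuts SREBPs, rose by 0.23 and then by 0.25 in the middle windows. Sec24d and Osbp each rose by 0.76 on days 6 to 9, and by 0.59 and 0.53 later.

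Of 20 tested LXR partners and sterol traffic genes, 3, 10, 9 and 9 rose in the 4 windows and 1, 2, 1 and 1 fell, with the last count of rises near the 38.6% of all genes. Cyp7b1, an oxysterol hydroxylase of bile acid synthesis, fell by 0.95 on days 1 to 2 and by 1.75 on days 3 to 5, when Lpcat3, an LXR target, and Lcat rose by 0.94 and 0.70. Osbpl3 rose by 2.27 on days 6 to 9, when Lcat rose by 0.70 and Gramd1a fell by 0.73. On days 10 to 14 Abcg1 rose by 1.43 and Cyp27a1, which starts the acidic route to bile acids, fell by 1.42. Abcg1 is also counted among the genes listed for lipid-laden macrophages. Of 13 isoprenoid branch genes, 2, 4, 3 and 3 rose and 0, 1, 3 and 1 fell, beside 9.05%, 26.5%, 35.1% and 38.6% of all genes that rose. Cox10, which makes haem O, rose by 0.37, 0.82, 0.86 and 0.79, and Rabggtb, a subunit of the Rab prenyltransferase, fell by 1.05 on days 3 to 5 and 1.12 on days 6 to 9.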

How the data were processed

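Stranded libraries of liver poly(A) RNA from 63 mice gave single-end reads 50 nucleotides long, per the labels' protocols. TopHat2 2.0.13, Bowtie 1.1.2, edgeR and mm9 are named in the submitters' processing notes. The authors' deposited table holds log2 values of RPKM for 15616 genes, with a constant near 8.9e-05 inside the logarithm; its minimum, -13.4557, is 5.02% of values and stands for genes listed at 0. That the unit is RPKM was read from the values. Of 1242 weakly expressed genes screened, 480 were kept because their reads lay near whole numbers in part of the libraries. In the other libraries 95.5% of their values lay within 0.1 reads of a whole number. The read size of each library was itself chosen to make values whole, so this share is no independent test of the unit. The read sizes gave estimated depths of 18900000 to 60500000 reads (median 39000000), with exon lengths for 14300 genes (91.6%). Depth bears on counting error only. Standard errors come from the spread between libraries within the groups of each fit, and include differences between mice beside counting error. The scale of the deposited values differed between libraries.

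Tests used limma 3.58.1 (R 4.3.3) with an intensity trend, two-sided, on log2 values with each library centred on the median tested gene, beside the values as deposited. The choice to require both scales for rose or fell was made with earlier results known. Genes entered the test with a log2 value of 0 or more (1 RPKM) in 4 or more libraries (12221 in males, 12380 in all 63) or 2 libraries (11919 in females). All 31 members passed. The male fit had 1 mean for each genotype on each day (21 residual degrees of freedom), females with 1 mean per window (8), and Het against KO over all libraries (29). Windows are unweighted means over days, and lone libraries of days 10 to 14 are assumed to vary like replicated ones. An unnumbered KO day 14 column was assigned through the sample sheet. Numbers after ± are standard errors, and a fold is 2 to the power of the log2 difference. The fit was tested on simulated data. Promoters and coordinates printed with them are from RefSeq, GRCm38.p6, while the table uses mm9; 5 members had no promoter window.

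Every library's values, or the range and median, are given for Srebf2, Insig1, Insig2, Sqle, Idi1 and the members among the 2 largest rises or falls past the threshold in a window. Other members are named where they pass with an absolute difference of at least 0.6, and up to 4 genes of each other list by smallest p. Fdps, Soat2, Lbr, Scap, Abca1, Nr1h3, Ggps1 and others named beyond this were chosen after their values were seen. The members and lists were chosen with earlier results of these data known. Alternatives were the deposited scale, quantile normalization, plain library totals (added after seeing the data), no filter, a pseudocount of 0.1 RPKM, window libraries alone, B_1 or B_2 alone, a replicate block and leaving out each library.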

Additional observations from a re-analysis of the deposited data

Results flagged for a closer look

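For 11 members the change from days 0 to 1 to days 10 to 13 differed between Het females and KO males by limma's test of the difference itself, relative to the median gene. The change was higher in Het than in KO by 3.23 for Tm7sf2, 1.81 for Insig1, 1.73 for Fdps, 1.33 for Nsdhl, 1.30 for Stard4, 1.21 for Idi1, 1.1 for Pmvk, 1.09 for Scap, 1.05 for Ebp and 0.71 for Srebf2, and lower by -0.77 for Soat2, all on the log2 scale. Of these, Idi1, Pmvk, Scap, Ebp and Srebf2 did not pass in the values as deposited. The Het baseline is 2 libraries, of days 0 and 1, that differ in their enzyme median (-0.24 and 0.56), and sex and genotype cannot be told apart. The Het libraries are all B_1, while the KO libraries of days 0 and 1 hold both marks.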

How the results depend on the processing

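Without each library in turn, the members past the threshold relative to the median gene in KO against WT numbered 0 to 0, 5 to 15, 10 to 15, 10 to 18 and 23 to 27 from day 0 to days 10 to 14. In WT against day 0 they numbered 0 to 2, 0 to 3, 2 to 6 and 1 to 6, in KO against day 0 1 to 4, 2 to 5, 6 to 12 and 22 to 26, in Het 0 to 4, 0 to 9 and 0 to 11, and in Het against KO 5 to 14. Het counts rose most without day 0.

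In the values as deposited, 12, 19, 17 and 15 members passed in WT over time, 4 and 26 in KO on days 1 to 2 and 3 to 5, and 11, 11 and 8 in Het, nearly all higher. Quantile normalization gave 4 and 2 in WT on days 1 to 2 and 10 to 14 and 1 in Het on days 10 to 13, where the pseudocount of 0.1 also gave 1. B_1 alone gave 0, 2 and 2 in KO against WT from days 1 to 2 on, 0 in every WT window, and 0, 1 and 0 in KO over time; B_2 alone gave 1, 0 and 0 in WT and 4 in KO on days 6 to 9.

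Same-numbered KO and WT libraries deviated together weakly or not at all (correlations -0.055 to 0.286 over 10 days, highest on day 3). On days 0, 1 and 3 to 8 replicate 1 is B_1 and replicate 2 is B_2 in both genotypes, so there the numbers follow that mark. Days 2 and 9, all B_2, gave -0.005 and -0.055. With a replicate block 2 members in place of 1 passed in KO on days 1 to 2, and no other count moved by over 1.5 times.

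Reversed signs are listed only for members past the threshold relative to the median gene, so Sqle and Insig2 on days 10 to 14 are not among them. With plain totals, signs reversed for KO against WT on days 10 to 14 in Abca1 (0.05) and Nr1h3 (0.11). In the deposited values they reversed for that comparison in Abca1 (0.52), Nr1h3 (0.59) and Hsd17b7 (0.12). Over time they reversed in KO on days 10 to 14 for Aacs (0.36), Acat2 (0.17), Fdft1 (0.34), Hsd17b7 (0.57), Mvk (0.08), Nr1h3 (1.05) and Srebf2 (0.15), on days 6 to 9 for Acat2 (0.31) and Stard4 (0.16), and on days 3 to 5 for Tm7sf2 (0.07). In WT they reversed for Ggps1 (0.26), Soat2 (0.03) and Stard4 (0.05) on days 6 to 9 and Stard4 (0.32) on days 10 to 14, and in Het for Stard4 (0.21). These follow from the shift of the median gene. No filter, the pseudocount, quantile normalization, the block, the window libraries alone and leave-one-out reversed no member call. Days 10 to 14 hold no B_2 library, so that alternative gave no value.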

Other observations

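Over single days, 27 of the 31 members were below WT on day 13 and 25 on day 14, against 48.3% and 46.3% of all tested genes, and 11 were on day 5, against 46.8%. The KO library of day 8 replicate 1 was lower than replicate 2 in enzyme median, at -0.86 against 0.27, and WT day 5 replicate 1 was lower than replicate 2, at -0.34 against 0.34.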
